A study of Mus musculus with 7 samples.

Results

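The cytosolic ribosome is built from a small (40S) subunit, which carries the Rps proteins and decodes mRNA, and a large (60S) subunit, which carries the Rpl proteins and forms peptide bonds. Transcripts for these proteins are among the most abundant in most cells, and many of them start with a run of pyrimidines (a terminal oligopyrimidine tract), through which the growth kinase mTORC1 regulates their translation. Several genes have a paralog with a narrower range of tissues, and most have processed copies elsewhere in the genome, so that a short probe may bind the RNA of more than 1 locus.

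Of the 56605 probes on the array, 182 carried the names of 84 cytosolic ribosomal protein genes, with the transcribed pseudogene Rps4l among these names. They were taken by gene name in the scanner files (Rpl or Rps followed by a number, with Rplp0, Rplp1, Rplp2 and Rpsa), and names of pseudogenes ending in -ps were left out. Abdominal mammary glands came from nulliparous FVB mice of 20 to 25 weeks, all killed at diestrus, after the lymph nodes had been cut out. The wild-type group held 3 mice and the PRA transgenic group 4 mice. PRA transgenic mice overexpress the A form of the progesterone receptor through 2 transgenes, CMV-GAL-4, in which the murine cytomegalovirus promoter drives the transactivator, and UAS-PR-A. The labels call the PRA glands preneoplastic and give each animal as 1 array. Gland RNA was labelled with Cy5 and hybridised together with Cy3-labelled Universal Mouse Reference RNA, a pool from 11 mouse cell lines. Every value below is a log2 ratio of gland over reference, or a difference of such ratios, unless an intensity is named.

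Kept probes were those that the scanner software marked in Cy5 as well above background in all glands of 1 genotype or of both. This held for 176 of the 182 ribosomal protein probes and for 82 of the 84 genes, against 34288 of all 56605 probes. No spot was saturated. Fewer of all probes were well above background on the PRA arrays than on the wild-type arrays. The shares were 56.66% to 60.23% against 62.66% to 66.15% in Cy5. In Cy3, which carried the same reference RNA, they were 47.23% to 50.62% against 53.25% to 53.99%. A single slide held the 7 arrays, with wild-type glands along 1 row and PRA glands along the other, so the effect of the row cannot be told apart from that of genotype. The median markers of adipocytes and of basal and luminal epithelium stood above the reference in all glands. Skeletal muscle markers ranged from -0.49 to 4.06 (median of 7 kept genes) in the wild-type glands and from -0.99 to 3.06 in the PRA glands, and T cell markers were highest in wild-type replicate 1, at 0.80 against -1.54 to -1.04 in the other glands; their part in the ribosomal protein values was not tested. Because the tissue was used whole, fewer cells of a type and less RNA per cell cannot be told apart. The brighter kept probe of Pgr, the progesterone receptor gene, differed between genotypes by -0.65 (SE 0.80, limma adjusted p = 0.859). Whether the Pgr probes lie in the transgene is not given in the sources used here, so they do not check the labels.

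The probes on which the results below turn are shown first, 5′ to 3′, with the positions that the files give on mm9. Rps3a1 and Rplp1 are genes whose own probes differed from each other, and for Rpl26 the probe that passed the unadjusted test is given. In A_55_P2911102 and A_55_P2121846, and again in A_55_P2155826 and A_55_P2933544, the capital marks the base at which overlapping probes of the same gene differ. The first pair shared 48 bases apart from the substitution A33G (the base of A_55_P2121846 first, counted from 1 at its 5′ end), and the second shared 43 bases apart from T16G (the base of A_55_P2155826 first). In A_55_P1995126, the capitals mark a polyadenylation signal. For some probes, a stretch of 30 bases is given, as marked.
Rps3a1 A_55_P2911102, bases 1 to 30 (chr3:85941875-85941934, minus strand): ccgccagtccaagaatcagtGtaaaatcca
Rps3a1 A_55_P2121846, bases 13 to 42 (chr3:85941887-85941946, minus strand): ccgccagtccaagaatcagtAtaaaatcca
Rps3a1 A_55_P2136385 (chr3:85943041-85943100, minus strand): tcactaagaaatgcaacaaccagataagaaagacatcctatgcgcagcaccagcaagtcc
Rps3a1 A_55_P2722600 (chr3:85942007-85942438, minus strand): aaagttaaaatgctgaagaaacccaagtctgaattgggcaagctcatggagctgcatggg
Rplp1 A_55_P1995126, bases 31 to 60 (chr9:61761086-61761145, minus strand): ttggccAATAAAgagctgaacctgtaaaaa
Rplp1 A_55_P2155826 (chr9:61761259-61761318, minus strand): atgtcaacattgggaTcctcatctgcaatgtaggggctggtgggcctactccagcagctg
Rplp1 A_55_P2933544 (chr9:61761276-61761701, minus strand): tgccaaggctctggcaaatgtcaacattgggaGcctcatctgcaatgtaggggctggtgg
Rpl26 A_55_P2156409 (chr11:68715776-68715835, plus strand): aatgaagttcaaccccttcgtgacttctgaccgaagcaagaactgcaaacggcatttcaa
The positions of A_55_P2722600 and of A_55_P2933544 cover more than the 60 bases of the probe (432 and 426 bases), which is what a probe across an exon junction gives; 47 of the 176 kept probes did so.

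The first comparison asked how ribosomal protein transcripts differed between PRA transgenic and wild-type glands. As a group, they hardly differed. With the brightest kept probe standing for each gene, 41 of the 82 genes had a positive and 41 a negative log2 fold change (PRA transgenic minus wild-type), and the median was 0.00, against 0.01 over all 22503 genes with a kept probe. The 33 small subunit genes had a median of -0.01 (15 positive), and the 49 large subunit genes a median of 0.02 (26 positive). In 76 of the 82 genes, the difference was smaller than 0.2 in size. The median over the 82 genes in each gland ran from -0.02 to 0.08 in the wild-type group and from -0.04 to 0.00 in the PRA group, so the range of the PRA glands overlapped that of the wild-type glands.

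The intervals were narrow. The 95% interval of the fold change lay within 1.5-fold in either direction for 76 of the 82 genes and within 2-fold for 80. Over all genes, 43.7% lay within 1.5-fold and 74.2% within 2-fold. The ribosomal protein genes were bright, with a median log2 Cy5 intensity of 15.6 against 8.2 over all genes, and brightness moved with this result; its part was not tested. Among the 866 genes with a mean log2 Cy5 intensity of 14 or more, 63.9% lay within 1.5-fold and 93.1% within 2-fold. The SD between animals of a genotype, at the median gene, was 0.08 for the ribosomal protein genes, 0.26 over all genes and 0.21 over the bright genes, a set that holds 76 of the ribosomal protein genes itself.

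**Figure D1:**
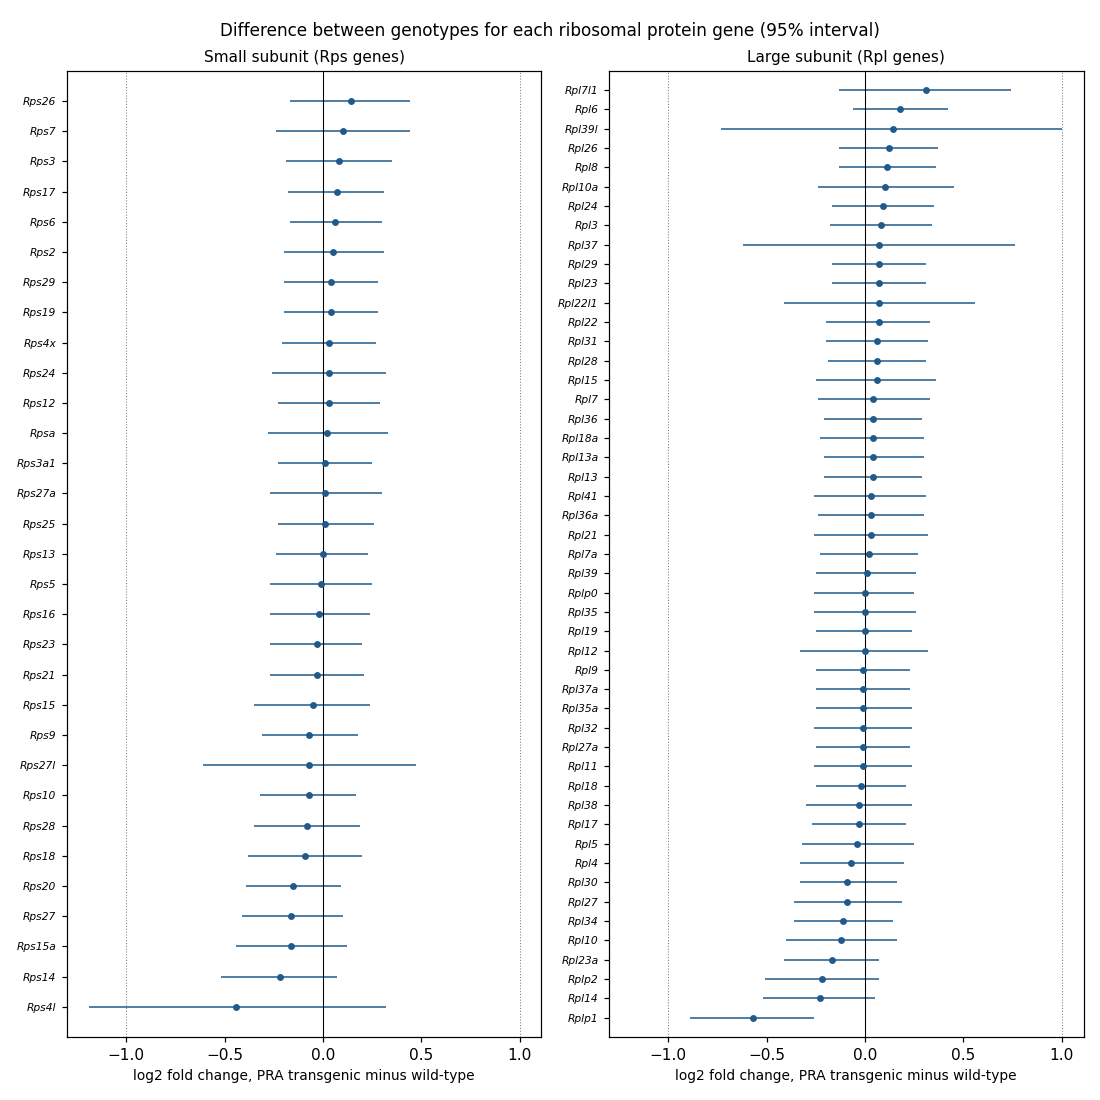
Log2 fold change (PRA transgenic minus wild-type, horizontal axis) of 31 small subunit genes and 49 large subunit genes, each by its brightest kept probe. Points are estimates, bars are 95% intervals, and dotted lines mark 2-fold. Most points lie within 0.2 of 0, only the interval of Rplp1 leaves out 0, and those of Rps4l and Rpl39l are the widest.

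The 6 genes whose interval reached beyond 1.5-fold were Rplp1, Rps4l, Rps27l, Rpl7l1, Rpl37 and Rpl39l. Apart from Rplp1 and Rpl37, these are paralogs of other ribosomal protein genes. Rps4l (-1.19 to 0.32) and Rpl39l (-0.73 to 1.00) were the pair not within 2-fold.

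**Figure D2:**
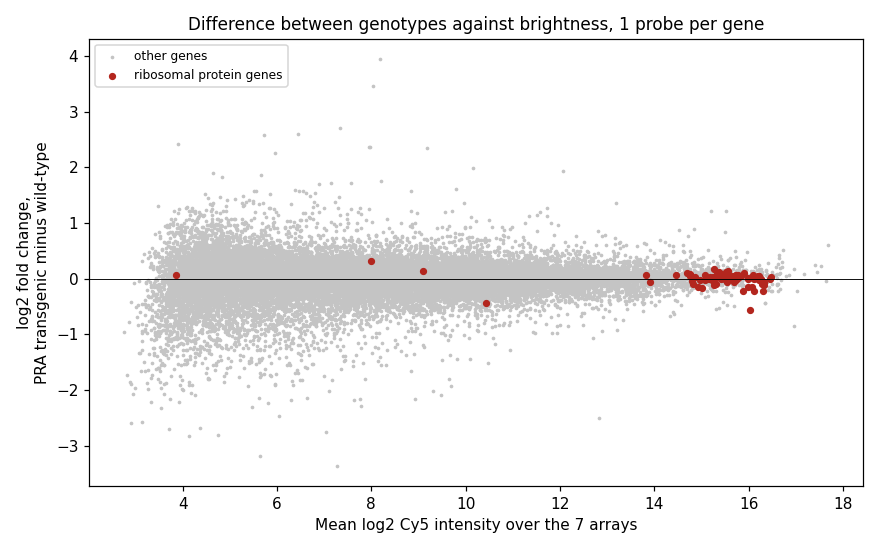
Log2 fold change (vertical axis) against the mean log2 Cy5 intensity over the 7 arrays (horizontal axis), 1 probe per gene, for the 82 ribosomal protein genes (red) and the other genes (grey). Most ribosomal protein genes lie at an intensity of 14 or more, where the spread of all genes is narrow, and 4 lie below 12.

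At the level of single probes, 1 of the 176 kept ribosomal protein probes passed P under 0.01 with a fold change of 2 or more, where 0.796% of all kept probes did. The same probe, A_55_P2722600 of Rps3a1, was the only one to pass an adjusted p under 0.05 (limma, Benjamini-Hochberg over all 34288 kept probes), where 0.0117% of all probes passed. At an unadjusted p under 0.05, 4 probes passed, 2 higher and 2 lower in the PRA glands. This was 2.27% of the ribosomal protein probes, against 9.02% of all kept probes and 1.83% of the probes with a mean log2 Cy5 intensity of 14 or more. They included probes of Rps3a1, Rplp1 and Rpl26. Counted by gene, with the brightest probe, Rplp1 alone passed (1.22%), against 7.95% of all genes.

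Rps3a1 encodes eS1, a protein of the small subunit that lies close to the mRNA exit site. For probe A_55_P2722600, the ratio was 0.09, -0.07 and 0.05 in the 3 wild-type glands and -2.23, -1.93, -1.93 and -1.89 in the 4 PRA glands. Every PRA gland lay far below every wild-type gland, and among the PRA glands replicate 1 was the lowest. The difference was -2.02 (SE 0.13, 4.06-fold lower in the PRA glands, limma adjusted p = 0.00703).

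The change at this probe was seen in the gland channel. The log2 Cy5 intensity was 14.84, 14.75 and 14.63 in the wild-type glands and 12.54, 12.76, 12.78 and 12.88 in the PRA glands. The Cy3 intensity of the reference ran from 14.58 to 14.82 next to the wild-type glands and from 14.70 to 14.77 next to the PRA glands. These intensities are not scaled between arrays. With Cy5 alone, scaled to the 75th percentile of each array, the difference was -1.79 (SE 0.13, limma adjusted p = 0.0151). The probe stood once on each array, so each value is a single spot.

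The other 3 probes of Rps3a1 did not show this difference. A_55_P2911102, the brightest, gave ratios of 0.15, 0.13 and 0.23 in the wild-type glands and of 0.11, 0.17, 0.22 and 0.20 in the PRA glands, a difference of 0.01 (SE 0.10). The differences of the remaining pair were -0.06 (SE 0.11) for A_55_P2121846 and 0.18 (SE 0.14) for A_55_P2136385, which stood 10 times on each array. In the sequences shown above, A_55_P2722600 lies between these probes on the gene, with its ends 432 bases apart on the genome. The direct test of probe against brightest probe gave -2.03 (SE 0.11, limma adjusted p = 0.0011 over all probe pairs). With the replicate number or the slide column as a block, it was -2.06 (SE 0.15, adjusted p = 0.234) and -2.04 (SE 0.16, adjusted p = 0.48), so neither fit called it. In the fits of single probes with either block, 0 of all 34288 kept probes passed an adjusted p under 0.05. The gene is therefore described here as 4 probes, of which 1 was lower. Leaving out wild-type replicate 1, wild-type replicate 3 or PRA replicate 3 gave -1.99, -2.01 and -2.04 with adjusted p = 0.0653, 0.0903 and 0.0634, so the call over all probes ended there.

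**Figure D3:**
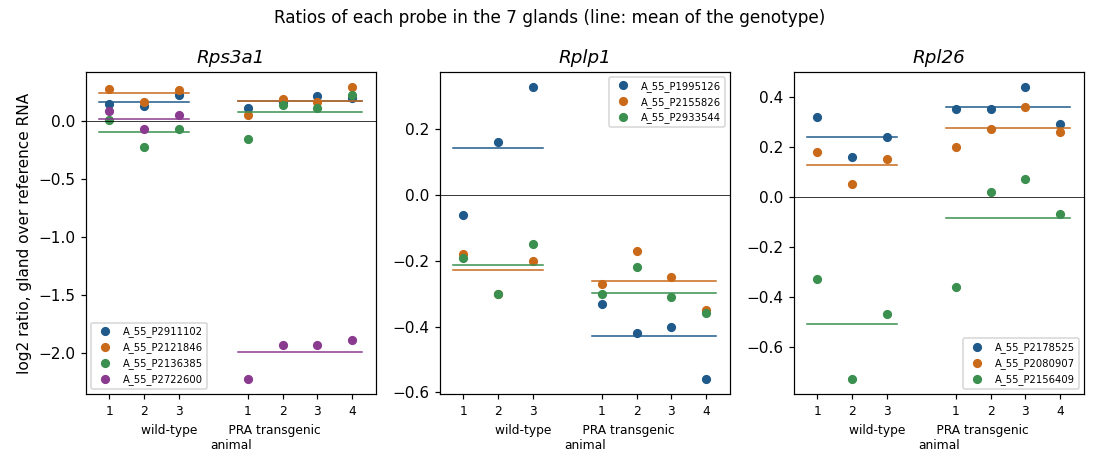
Log2 ratio of gland over reference RNA (vertical axis, a scale of its own in each panel) in the 3 wild-type and 4 PRA transgenic animals for the probes of Rps3a1, Rplp1 and Rpl26 that were well above background in all PRA glands. Points are animals and lines are means of a genotype. A_55_P2722600 drops to between -2.23 and -1.89 in the 4 PRA glands while the other Rps3a1 probes stay near 0.

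Rplp0, Rplp1 and Rplp2 form the stalk of the large subunit, which recruits the factors that drive elongation. The ratio of Rplp1 at its brightest probe, A_55_P1995126, was -0.06, 0.16 and 0.33 in the wild-type glands and -0.33, -0.42, -0.40 and -0.56 in the PRA glands. The genotypes did not overlap. The difference of -0.57 (SE 0.13) was the lowest of the 82 genes, with an unadjusted p of 0.00343 and a limma adjusted p of 0.362, so it did not pass over all probes. In the gland channel (Cy5) alone, scaled to the 75th percentile of each array, the difference was smaller, at -0.38 (SE 0.11).

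The other Rplp1 probes gave smaller values. A_55_P2155826 had ratios of -0.18, -0.30 and -0.20 in the wild-type glands and of -0.27, -0.17, -0.25 and -0.35 in the PRA glands, which overlap, and a difference of -0.03 (SE 0.11). For A_55_P2933544, which overlaps it in sequence, the difference was -0.08 (SE 0.11). Set against the brightest probe, these were 0.54 (SE 0.13, limma adjusted p = 0.182) and 0.49 (SE 0.12, adjusted p = 0.196). The brightest probe is the one that holds the polyadenylation signal and ends in a run of A. The files annotate it to a cDNA clone and the other pair to the RefSeq mRNA. Rplp2, with a single kept probe, had ratios of 0.12, 0.28 and 0.12 against 0.15, -0.15, -0.04 and -0.13, and a difference of -0.22 (SE 0.12, adjusted p = 0.657). Its wild-type and PRA glands overlapped at PRA replicate 1. Rplp0 differed by 0.00 (SE 0.11), with glands of both genotypes between -0.59 and -0.41.

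Rpl26 encodes a large subunit protein near the exit of the peptide tunnel. For A_55_P2156409, ratios were -0.33, -0.73 and -0.47 against -0.36, 0.02, 0.07 and -0.07. PRA replicate 1 lay among the wild-type glands, and the difference was 0.43 (SE 0.16, unadjusted p = 0.0313, limma adjusted p = 0.504). The brightest Rpl26 probe gave 0.12 (SE 0.11) and A_55_P2080907 gave 0.14 (SE 0.11). Another probe, A_55_P2721608, was well above background on the 3 wild-type arrays and on 1 PRA array. It gave -1.48 (SE 0.70, unadjusted p = 0.0711).

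The second comparison set the probes of each gene against each other. Of the 82 genes, 58 had 2 to 5 kept probes, and the range of the fold change over the probes of a gene had a median of 0.07. It was under 0.1 in 35 genes and over 0.5 in 5 genes, which were Rps3a1 (2.20), Rpl26 (1.91), Rps29 (0.67), Rpl6 (0.54) and Rplp1 (0.54). The Rpl26 and Rps29 ranges rest on a dim probe that was kept through the wild-type arrays alone. Over probes well above background on all 7 arrays, they were 0.30 and 0.03, and the count over 0.5 was 3 genes. In the Rps29 case, the low-level probe A_55_P2603196 gave 0.69 (SE 0.41) and was well above background on 1 of 4 PRA arrays, while the other 3 probes gave 0.02 to 0.04. The files place those 3 on chromosome 2 and the dim one on chromosome 12. Rpl6 ran from -0.20 (SE 0.18) to 0.34 (SE 0.16) over 4 probes.

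Tested directly, 5 of the 94 ribosomal protein probes differed from the brightest probe of their gene at an unadjusted p under 0.05, which is 5.32% against 14.1% of all 11785 such pairs. At an adjusted p under 0.05, 1 did, against 0.0594% of all pairs. They included A_55_P2722600 of Rps3a1, both lesser Rplp1 probes and A_55_P2135631 of Rps18 (0.23, SE 0.09, limma adjusted p = 0.333). In 65 of the 94 pairs, the difference from the brightest probe was under 0.1 in size.

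**Figure D4:**
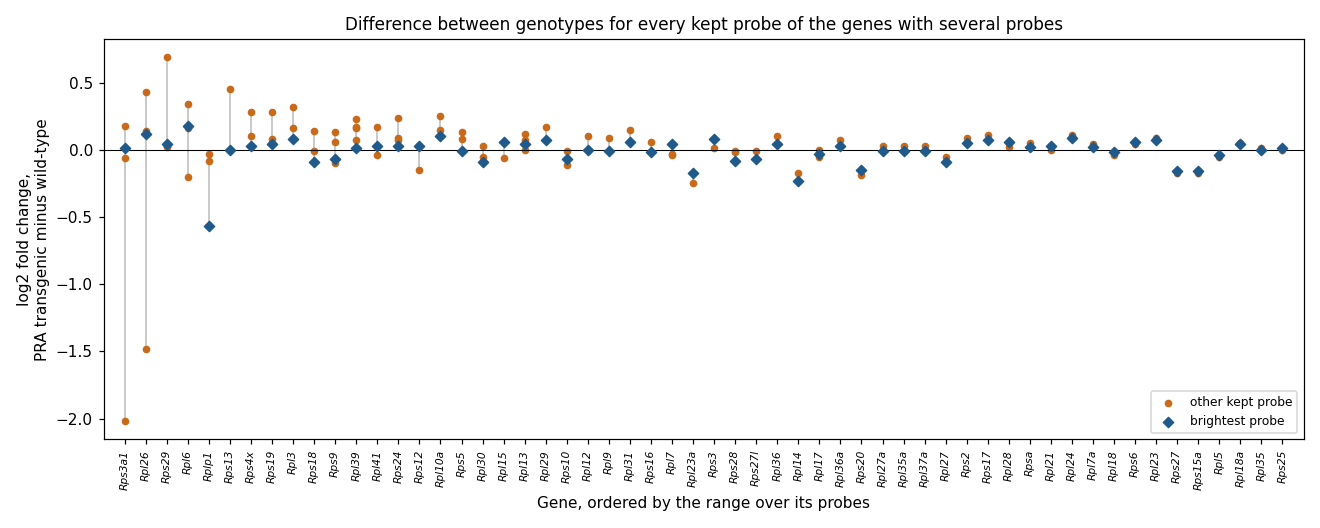
Log2 fold change (PRA transgenic minus wild-type, vertical axis) of every kept probe of 56 genes with several kept probes, ordered by the range over the probes of a gene. Diamonds are the brightest probe of a gene and circles its other probes. A single Rps3a1 probe lies at -2.02 and a dim Rpl26 probe at -1.48, whereas the probes of most genes nearly coincide.

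Overlap between genotypes was counted over the 82 genes. In 3 genes (3.66%) every PRA gland lay above every wild-type gland, against 4.59% of all genes, and in 3 (3.66%) every PRA gland lay below, against 4.52% of all genes. By their brightest probes, the higher ones were Rps6, Rpl6 and Rpl8, with differences of 0.06, 0.18 and 0.11. The lower ones were Rps20, Rpl23a and Rplp1, with differences of -0.15, -0.17 and -0.57. Over all 4 kept probes of Rpl6, the difference ran from -0.20 to 0.34, so its direction depended on the probe. Rps6 encodes the protein that S6 kinase phosphorylates. Its ratios were 0.12, 0.11 and 0.09 in the wild-type glands and 0.15, 0.14, 0.22 and 0.15 in the PRA glands, a step that the fit did not call (SE 0.10). Rpl14 (-0.23, SE 0.12), Rps14 (-0.22, SE 0.12) and Rps26 (0.14, SE 0.13) completed the 5 lowest and 5 highest genes together with Rplp1, Rplp2, Rps4l, Rpl26, Rpl6 and the paralogs Rpl7l1 and Rpl39l. None of these other genes passed an unadjusted p under 0.05 at its brightest probe.

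Genes with roles outside the ribosome did not pass the test either. Rpl5 and Rpl11 bind the 5S RNA and, when free, inhibit Mdm2, the ligase of p53. They differed by -0.04 (SE 0.12) and -0.01 (SE 0.11). Rpsa, also known as the laminin receptor, differed by 0.02 (SE 0.13), and Rps27a, which is made as a fusion with ubiquitin, by 0.01 (SE 0.12). Of the 9 genes listed for Diamond-Blackfan anaemia, an inherited failure of red cell production caused by ribosomal protein mutations, none passed, with differences from -0.07 to 0.14. Of 4 tested proteins of the ribosome that the naming rule leaves out (Fau, Gnb2l1 and Rpl36al among them), none passed, with differences from -0.05 to 0.07. Over all genes 7.95% passed the unadjusted test, and these sets are too small to tell a count of 0 from that share.

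The third description concerns the level of each gene relative to the reference RNA, which comes from growing cell lines. In the wild-type glands, the ratio had a median of 0.02 over the 82 genes, against 0.05 over all genes. Of the 82, 75 lay within 0.5 of 0, where 43.6% of all genes did. The interquartile range was 0.41, against 1.25 over all genes. The signals were dye-normalised on each array, so a median near 0 is not read as equal amounts in gland and reference. The share and the range over bright genes alone were not counted. Small subunit genes had a median of 0.17 and large subunit genes of -0.04. This order was seen in each of the 7 glands (0.09 to 0.20 against -0.09 to -0.02). The ratios within 1 array show unequal levels relative to the reference and not the amount of either subunit. Every gland was labelled with Cy5 and no dyes were swapped, so a dye bias of a probe would recur in each gland. The levels in this description cannot be told apart from such a bias.

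The level of a gene relative to the reference depended on the probe. Over the 58 genes with several kept probes, the wild-type ratio differed between the probes of a gene by a median of 0.27, by over 0.5 in 17 genes and by over 1 in 5. Rps28 was at 0.78 ± 0.08 (SD, n = 3) by its brightest probe and at 0.12 ± 0.07 and 0.09 ± 0.06 by the others. For Rps25, the ratios were 0.45 ± 0.02 and -0.47 ± 0.14, and for Rpl13 they ran from -1.50 ± 0.13 to -0.50 ± 0.04. Within each of these genes, the difference between genotypes was 0.12 or smaller in size for every probe.

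**Figure D5:**
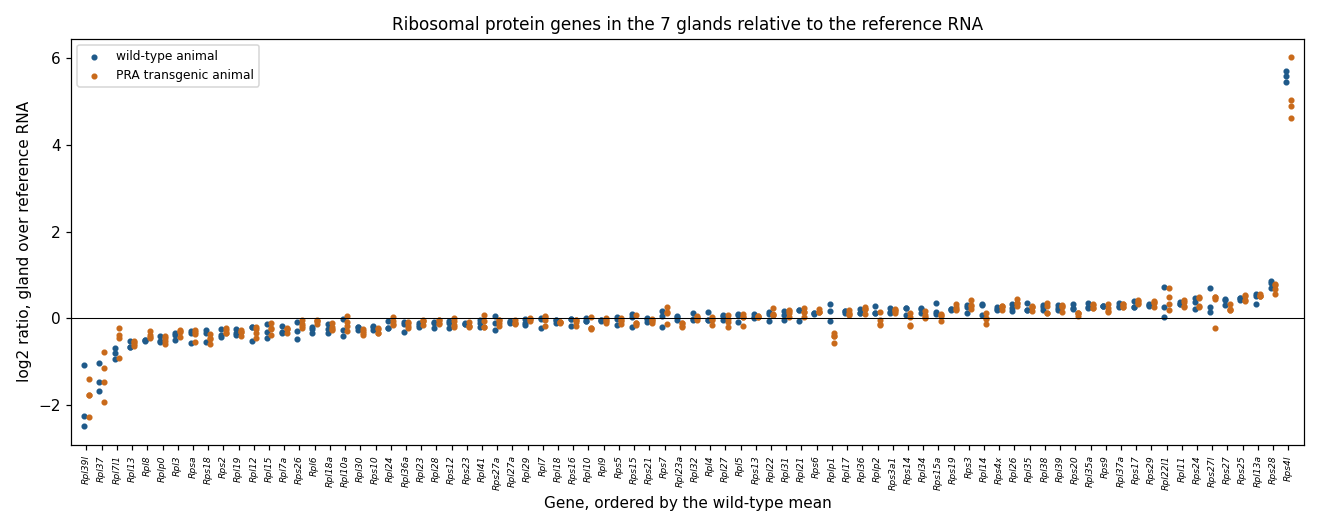
Log2 ratio of gland over reference RNA (vertical axis) for 80 genes, ordered by the wild-type mean, with 1 point per animal (blue wild-type, orange PRA transgenic). Most genes lie within 0.5 of 0 in both genotypes, Rpl39l and Rpl37 lie lowest, and Rps4l lies far above all others, between 4.63 and 6.02.

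The highest ratio belonged to Rps4l, which RefSeq lists as a transcribed pseudogene. It was 5.59, 5.70 and 5.46 in the wild-type glands and 5.04, 4.90, 6.02 and 4.63 in the PRA glands, and the reference was well above background on 6 of the 7 arrays. The genotypes overlapped, with a difference of -0.44 (SE 0.32, limma adjusted p = 0.74). Its counterpart Rps4x was at 0.20 to 0.28 in all glands. After Rps4l, the highest wild-type levels were those of Rps28 (0.78 ± 0.08, SD, n = 3), Rpl13a (0.48 ± 0.12) and Rps25 (0.45 ± 0.02). By these brightest probes, Rpl13a and Rps25 lay within their spread of each other and Rps28 stood above them, an order that the lower Rps28 and Rps25 probes above do not keep.

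By their brightest probes, the lowest were Rpl39l (-1.94 ± 0.76), Rpl37 (-1.40 ± 0.33), Rpl7l1 (-0.80 ± 0.13), Rpl13 (-0.62 ± 0.09) and Rpl8 (-0.51 ± 0.01). This order also depended on the probe. The lowest kept probes of Rpl12, Rpl10a and Rps12 were at -1.80, -1.61 and -1.56, and their highest at -0.23, -0.23 and -0.13. Rpl39l, known best from the testis, overlapped with Rpl37 in its spread. Rpl37 was measured by a single dim probe that was well above background on 3 wild-type arrays and 1 PRA array, so its level is less certain than those of the bright genes.

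The kept paralogs spread more widely over the 7 glands than their counterparts. Rps27l, a paralog of Rps27 that p53 can induce, ran from 0.15 to 0.70 in the wild-type glands and from -0.22 to 0.48 in the PRA glands, with PRA replicate 4 apart from the other PRA glands. Its counterpart Rps27 ran from 0.30 to 0.44 and from 0.18 to 0.32. Rpl22l1 ran from 0.02 to 0.73 and from 0.18 to 0.69, and Rpl22 from -0.06 to 0.14 and from 0.08 to 0.23. Rpl7l1, a protein of ribosome assembly, was at -0.79, -0.94 and -0.68 in the wild-type glands and at -0.46, -0.38, -0.23 and -0.92 in the PRA glands, a difference of 0.31 (SE 0.18, adjusted p = 0.677), while Rpl7 differed by 0.04 (SE 0.12). Rpl39l differed by 0.14 (SE 0.37) and Rpl39 by 0.01 (SE 0.11). None of the 5 kept paralogs passed an unadjusted p under 0.05, where 7.95% of all genes did, and 5 genes are too few to tell the count from that share.

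Rpl3l and Rpl10l, the paralogs of Rpl3 and Rpl10 known from striated muscle and from testis, had no kept probe. Rpl10l did not rise well above background in either genotype. For Rpl3l, the log2 Cy5 intensity was 4.77, 2.20 and 7.09 in the wild-type glands and 5.88, 6.27, 2.14 and 5.39 in the PRA glands, and it was well above background on 2 wild-type and 3 PRA arrays. The reference was well above background on PRA replicates 1 and 2 alone, at a log2 Cy3 intensity of 6.35 and 6.51 against 2.15 to 2.56 on the other arrays, so a ratio to it is not read here. Skeletal muscle markers were highest in wild-type replicates 1 and 3 and PRA replicate 4, at 2.09, 4.06 and 3.06. Wild-type replicate 3 was highest for both the markers and Rpl3l. In PRA replicates 1 and 2, the markers were at -0.51 and -0.99. Their Rpl3l intensities exceeded those of wild-type replicate 1 and PRA replicate 4. On these PRA arrays the reference was raised at the same probe, and the part of muscle in the Rpl3l values was not tested. Rpl3 and Rpl10 differed between genotypes by 0.08 (SE 0.11) and -0.12 (SE 0.12).

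Genes that act with the ribosome were read from lists. Of 41 tested translation factor genes (42 listed), 0 were higher and 2 lower in the PRA glands at an unadjusted limma p under 0.05, which gives 2 of 41 against 7.95% of all genes, and the median difference was 0.00. The lower ones were Eif5, which triggers GTP hydrolysis on the initiation complex (-0.45, SE 0.14, adjusted p = 0.436), and Eif5b, which joins the subunits (-0.54, SE 0.17, adjusted p = 0.454). Of 61 tested ribosome assembly genes (62 listed), 1 was higher and 3 were lower, with a median of 0.06. This gives 4 of 61, against the same 7.95% of all genes, so the count does not set the list apart. Polr1b, a subunit of RNA polymerase I, was higher by 0.79 (SE 0.29, adjusted p = 0.495). Brix1 (-0.84, SE 0.27, adjusted p = 0.453), Utp14a (-0.41, SE 0.16, adjusted p = 0.506) and Taf1b (-0.32, SE 0.10, adjusted p = 0.462) were lower. None of these passed an adjusted p under 0.05. Of 13 genes of mTORC1 and the control of pyrimidine tract mRNAs, including Mtor (0.08, SE 0.17) and Larp1 (-0.23, SE 0.13), 0 passed the unadjusted test. The list is too short to tell this count from the 7.95% of all genes.

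Sequence around the start of transcription was read from RefSeq (GRCm38.p6) windows, which held 63 of the 84 genes. A C at the annotated start followed by 4 pyrimidines (each C or T, on the strand of the gene) was found in 13 of the 63 (20.6%), against 3.01% of the 27025 genes with a window. Within 10 bases of the start, it was found in 39 (61.9%), against 34.4% of all genes. Rps6 and Rplp2 are shown as genes with the tract at the annotated start, and Rps3a1 and Rpl22l1 as genes without it there. Rpl22l1 does hold a C followed by 4 pyrimidines within 10 bases after the start. Each line gives 15 bases before and 15 from the start, with only a tract at the start itself in capitals.
Rps6 (chr4:86857353-86857382, minus strand): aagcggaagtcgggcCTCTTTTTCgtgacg
Rplp2 (chr7:141447636-141447665, plus strand): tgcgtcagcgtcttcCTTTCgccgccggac
Rps3a1 (chr3:86142654-86142683, minus strand): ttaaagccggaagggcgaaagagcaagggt
Rpl22l1 (chr3:28805493-28805522, plus strand): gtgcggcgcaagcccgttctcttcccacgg
A match describes these letters at the annotated start, which can differ from the start used in the gland.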

How the data were processed

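Agilent SurePrint G3 Mouse Gene Expression v2 arrays with Cy5-labelled gland RNA and Cy3-labelled reference RNA were deposited as Feature Extraction output (version 12.0 per the submitters' processing notes, 11.5.1.1 per the file headers), and the deposited intensities were the authors' processed signals, background-subtracted and dye-normalised by that software. The authors' deposited table held log2 ratios centred on the median of the arrays; it served as an alternative. Here, log2(Cy5/Cy3) was averaged over spots of a probe after flagged outliers were left out, without further scaling. Kept probes (marked well above background in Cy5 in all glands of 1 genotype or of both) were fitted with limma 3.58.1 (lmFit, eBayes, R 4.3.3) on genotype, and p-values were adjusted by Benjamini-Hochberg over all kept probes. Probe pairs were fitted as probe minus the brightest kept probe of the gene, over all genes with several probes. The number of arrays, 3 against 4, limits the precision. Each label names a separate animal.

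Named genes were those with a called probe, the 5 lowest and highest fold changes, the 5 lowest and highest wild-type ratios, the 5 widest ranges between probes, the paralogs with their counterparts, the stalk genes, Rpsa, Rps6, Rps27a, Rpl5 and Rpl11; other genes with a counted call were named after their values were seen. Members and lists were chosen with earlier results of these data known. The fits were tested on simulated data. Alternatives were normexp (offset 50) with loess, the deposited table, other filters, Cy5 alone, quantile scaling, an eBayes trend, array weights, the replicate number or slide column as a block, the methods' t-test, and leaving out each animal. For Cy5 alone, the 75th percentile of log2 Cy5 of each array was subtracted. Slide column and the bright-probe background were added after seeing the data. The comparison with a slide block could not be fitted, since all arrays lay on 1 slide. A few results are not reported here or drawn in the figures.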

Additional observations from a re-analysis of the deposited data

Results flagged for a closer look

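Among 37 named probes, 8 had 1 PRA transgenic animal apart from the other 3 by Dixon's criterion; chance gives about 1 in 20. Most of these gaps were small on the log2 scale. PRA replicate 4 was apart for Rps27l (-0.22 against 0.44 to 0.48), Rpl10 (0.03 against -0.24 to -0.22) and Rpl39 (0.14 against 0.27 to 0.30). PRA replicate 1 was apart for Rps3a1 at A_55_P2722600 (-2.23 against -1.93 to -1.89), Rpl13a (0.55 against 0.51 to 0.52) and Rps4x (0.20 against 0.27 to 0.28). PRA replicate 2 was apart for Rpl22 (0.23 against 0.08 to 0.10), and PRA replicate 3 for Rps6 (0.22 against 0.14 to 0.15).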

How the results depend on the processing

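The fold change of Rps3a1 probe A_55_P2722600 and its distance from the brightest Rps3a1 probe kept their direction under all 17 alternatives. The median over the ribosomal protein genes moved by less than the SD between arrays (0.04) in each. The numbers of the replicates did not pair the glands (correlations of same-numbered deviations 0.101, -0.297 and 0.0364). With the replicate block, the Rps3a1 probe was at -2.05 (SE 0.17, limma adjusted p = 0.374). In this fit, 0 of all 34288 kept probes passed an adjusted p under 0.05, the ribosomal protein probes included. Of the ribosomal protein probe pairs, 0 passed an adjusted p under 0.05, and 1 translation factor gene passed the unadjusted test. The slide column as a block also left 0 of all 34288 kept probes at an adjusted p under 0.05. Of the ribosomal protein probe pairs, 0 passed an adjusted p and 3 an unadjusted p under 0.05, where 9.47% of all pairs did. In the same fit, 1 translation factor gene and 1 assembly gene passed the unadjusted test. By the t-test that the methods name, 1 probe met the study's threshold for P and fold, and 0 remained once p was adjusted. Normexp with loess gave 7 probes at an unadjusted p under 0.05 (3.98%, against 7.54% of all probes). It also gave 10 genes without overlap and a median wild-type ratio of 0.19, where all genes moved from 0.05 to 0.11. Quantile scaling gave 8 pairs at an unadjusted p under 0.05, where 14.5% of all pairs passed. The cause was not tested.

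Leaving out 1 animal at a time gave 1 to 2 probes at P under 0.01 and 2-fold, 0 to 1 at an adjusted p and 3 to 7 at an unadjusted p under 0.05 (1.7% to 3.98%, against 6.65% to 12.3% of all probes), 4 to 9 pairs at an unadjusted p (10.4% to 14.8% of all pairs), 1 to 2 translation factor genes, 1 to 5 assembly genes, and 7 to 18 genes without overlap, which fewer animals make easier. The counts of 7 probes and 9 pairs came without PRA replicate 1, that of 2 probes at 2-fold without PRA replicate 2, and those of 1 translation factor gene and 1 assembly gene without wild-type replicate 2 (2 assembly genes without PRA replicate 2). Genes without overlap numbered 18 without PRA replicate 4, 16 and 12 without wild-type replicates 2 and 3, and 11 without PRA replicate 1. The shares of all genes without overlap, or passing the unadjusted test, were not counted under any of the alternatives. The counts of genes under the alternatives therefore have no background to be read against. The Rplp1 difference at A_55_P1995126 ran from -0.67 to -0.48 when 1 animal was left out. With scaled Cy5 alone it was smaller, at -0.38 (SE 0.11, limma unadjusted p = 0.0104). It stayed under an unadjusted p of 0.05 in all 17 alternatives, and Rpl26 (A_55_P2156409) lost this in 7 of them. Dim probes, such as those of Rpl37, Rps29 and Rpl3l, limit what can be said of those genes.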
